A study of Mus musculus with 12 samples.

Results

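The integrated stress response and the mitochondrial unfolded protein response were represented by 10 genes: *Atf3*, *Atf4*, *Atf5*, *Ddit3* and *Trib3*, which encode transcription factors and an effector of the integrated stress response, and *Hspd1*, *Hspe1*, *Hspa9*, *Lonp1* and *Clpp*, which encode chaperones and proteases of the mitochondrial matrix. They were chosen by name, as 10 of 21938 protein-coding genes of the GENCODE annotation, and all 10 were found on mm10. For each gene, the peaks of 3 deposited ChIP-seq lists were read over the gene body and 10 kb on either side, called the window here. ChIP-seq (chromatin immunoprecipitation followed by sequencing) finds the DNA held by a protein or a modified histone. One list holds LSD1 peaks from liver of wild type C57BL/6 mice. The others hold H3K4me2 peaks from liver of control and of LSD1-LKO mice, also C57BL/6. Both of these groups carry floxed LSD1 alleles (LSD1 fl/fl). As adults, LSD1-LKO mice received Cre from an AAV8 vector whose thyroxine-binding globulin (TBG) promoter is active in hepatocytes, and control mice received GFP from the same kind of vector. LSD1 was therefore deleted in hepatocytes, and the other cells of the liver keep it. The methods put the mice of both groups on a high-fat diet after the injections, and inject them as young adults, but the paragraph on ChIP-seq and the labels give neither diet nor age for the animals behind each ChIP library. Each list joins 2 ChIP libraries, n = 2 in each group, and nothing says whether the 2 libraries came from separate mice. The lists hold peaks and no reads, so depth is unknown.

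LSD1 (*Kdm1a*) is a demethylase that removes methyl groups from mono- and dimethylated lysine 4 of histone H3. H3K4me2 (dimethylated lysine 4) marks active and poised promoters and enhancers, usually on the nucleosomes flanking a nucleosome-poor start site. In the integrated stress response, kinases phosphorylate the translation factor eIF2α, which lowers general protein synthesis and raises translation of ATF4, a transcription factor that activates amino acid and stress genes, among them ATF3, CHOP (*Ddit3*) and *Trib3*. Mitochondrial stress feeds into the same pathway, and ATF5 is linked to the induction of mitochondrial chaperones and proteases. In liver, the response is engaged by amino acid shortage, protein folding stress and defects of mitochondria.

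Promoters were taken as 1 kb on either side of every annotated transcript start of a gene. All 10 genes had an H3K4me2 promoter peak in both control and LSD1-LKO liver, as did 59.6% and 59.8% of all protein-coding genes. An LSD1 promoter peak was listed for 4 of the 10, *Atf4*, *Hspd1*, *Hspe1* and *Lonp1*, against 24.6% of all protein-coding genes and 38.6% of the 13777 genes with an H3K4me2 promoter peak in either list. *Hspd1* and *Hspe1* are divergent neighbors and share a single LSD1 peak, so the 4 genes rest on 3 peaks. No test was made of these counts, since genes are not replicates.

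The promoters of *Atf4*, the *Hspd1* and *Hspe1* pair and *Lonp1* are shown because LSD1 peaks lie on them, and that of *Atf3* as one without an LSD1 peak. The sequences are the 250 bases before the RefSeq start on GRCm38.p6 (the same assembly as mm10), 5′ to 3′ on the strand of the gene, with motif matches in capitals. They lie at chr15:80254934-80255183 (*Atf4*, plus strand), chr1:55087898-55088147 (*Hspe1*, plus strand), chr17:56626904-56627153 (*Lonp1*, minus strand) and chr1:191183334-191183583 (*Atf3*, minus strand).
Atf4: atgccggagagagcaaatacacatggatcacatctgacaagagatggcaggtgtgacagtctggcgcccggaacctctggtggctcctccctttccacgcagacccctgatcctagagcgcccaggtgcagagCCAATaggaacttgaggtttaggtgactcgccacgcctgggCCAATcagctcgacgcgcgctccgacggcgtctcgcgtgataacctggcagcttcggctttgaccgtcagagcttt
Hspe1: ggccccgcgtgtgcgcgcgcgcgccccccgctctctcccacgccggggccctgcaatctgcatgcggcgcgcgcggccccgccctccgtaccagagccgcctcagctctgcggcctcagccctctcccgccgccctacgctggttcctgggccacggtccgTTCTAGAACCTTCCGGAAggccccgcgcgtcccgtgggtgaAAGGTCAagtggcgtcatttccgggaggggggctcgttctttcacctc
Lonp1: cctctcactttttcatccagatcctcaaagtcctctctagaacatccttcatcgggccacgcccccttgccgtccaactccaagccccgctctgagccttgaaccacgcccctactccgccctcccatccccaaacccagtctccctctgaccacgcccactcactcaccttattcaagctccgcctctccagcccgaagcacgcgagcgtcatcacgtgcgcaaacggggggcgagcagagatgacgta
Atf3: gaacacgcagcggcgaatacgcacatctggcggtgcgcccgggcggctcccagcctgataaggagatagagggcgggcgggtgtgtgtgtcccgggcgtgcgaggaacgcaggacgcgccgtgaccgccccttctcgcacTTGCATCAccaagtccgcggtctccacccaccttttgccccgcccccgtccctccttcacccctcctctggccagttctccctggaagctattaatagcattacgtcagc

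The capitals in *Hspe1* are AAGGTCA, the core letters bound by estrogen-related receptors, and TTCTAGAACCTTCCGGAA, the letters of a heat shock element. Heat shock elements, bound by the HSF factors, were searched as GAA and TTC in alternation, 3 units with 2 bases between neighboring units. They were found in the RefSeq promoter windows (250 bases before the start to 50 after) of *Hspe1* and *Hspd1*, and these are the same bases, chr1:55088059-55088076, since the windows overlap. The share of all 20125 RefSeq windows holding such an element was 0.502%, and the share holding AAGGTCA was 3.98%. Both matches in the *Hspd1* and *Hspe1* promoter lay inside the listed LSD1 peak. The capitals in *Atf3* are a match to the composite element of C/EBP and ATF4, TGATGNAA, which reads TTGCATCA on the other strand. A second match to it, TTACATCA, lay at positions 14 to 21 after the start of *Trib3* (chr2:152344039-152344046, minus strand gene), and 3.40% of all windows hold one. The capitals in *Atf4* are the letters CCAAT, present in 37.8% of windows. The *Ddit3* window held CCGGAAGT, the letters of GABPα, as did 5.35% of windows. None of the 11 member windows held TGACGTCA (the cyclic AMP response element, 2.32% of windows) or CCAAT followed after 9 bases by CCACG (the endoplasmic reticulum stress element, 0.144%), and *Lonp1* and *Clpp* matched none of these letters. Both strands were searched, CCAAT is also part of the last element, and the matches are descriptions of sequence. *Hspa9* was not searched or shown.

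*Atf4*, the central transcription factor of the response (chr15:80255184-80257541, plus strand), had 3 LSD1 peaks in its window, more than any other of the 10. The peak over its start, chr15:80254928-80255835, had an LSD1 fold enrichment over the control library of 3.71 in the first-listed and 2.42 in the second-listed library. The first-listed interval covered all 3 annotated starts, whereas the second-listed interval, chr15:80255235-80255779, covered only the innermost of them. Its rank was the 54.3rd percentile of the 14584 listed LSD1 peaks by −log10 p-value, averaged over its 2 libraries. A second peak (chr15:80248447-80249013, folds of 3.29 and 2.54) lay in an intron of *Mief1*, the neighboring gene. The third (chr15:80258160-80258544, folds of 2.07 and 2.35) lay downstream of *Atf4*, at the 6.23rd percentile.

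In control liver, H3K4me2 ran without a break across the *Atf4* start. The peak spanned chr15:80254223-80257087 in the first-listed library, at a fold of 6.47, and chr15:80253613-80257513 in the second-listed library, at 9.36. In LSD1-LKO liver, both libraries instead listed a peak on each side of an unmarked stretch. The stretch measured 750 bp in the first-listed library (chr15:80254899-80255648), which took in all 3 starts, and 140 bp in the second-listed library (chr15:80254967-80255106), which lay just before the RefSeq start. The first-listed LSD1 interval of wild-type liver covered 721 of the 750 bp and all of the 140 bp. The second-listed LSD1 interval covered 414 of the 750 bp and 0 of the 140 bp. Peaks are numbered along the genome within each library, and no number was skipped across either stretch, so neither library had a further peak called there.

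The bases of the *Atf4* promoter under H3K4me2 peaks, its coverage, were 2301 and 2340 of 2340 bp in the control libraries and 1590 and 2200 bp in the LSD1-LKO libraries. Both LSD1-LKO values were below both control values. Such non-overlap toward lower coverage was seen at 17.3% of the 13777 marked genes, and toward higher coverage at 15.1%. Marked genes include those with a promoter peak in the control or the LSD1-LKO list only. Such a gene can count as non-overlapping through its absence from the other list alone, whereas *Atf4* is marked in both. The shares among genes marked in both lists were not computed. An exact two-sided permutation test of 2 against 2 libraries cannot go below p = 0.333, which is the value for *Atf4*. The 300-base RefSeq window of *Atf4* was whole under peaks in both control libraries and covered over 0 and 160 bases in the LSD1-LKO libraries. Of 5400 windows whole in both control libraries, 7.61% were whole in neither LSD1-LKO library. The lists give the extent of peaks and no reads, so whether the amount of the mark at *Atf4* differed was not tested. If it did, fewer cells with the mark and less of the mark in each cell cannot be told apart in a bulk tissue.

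**Figure D1:**
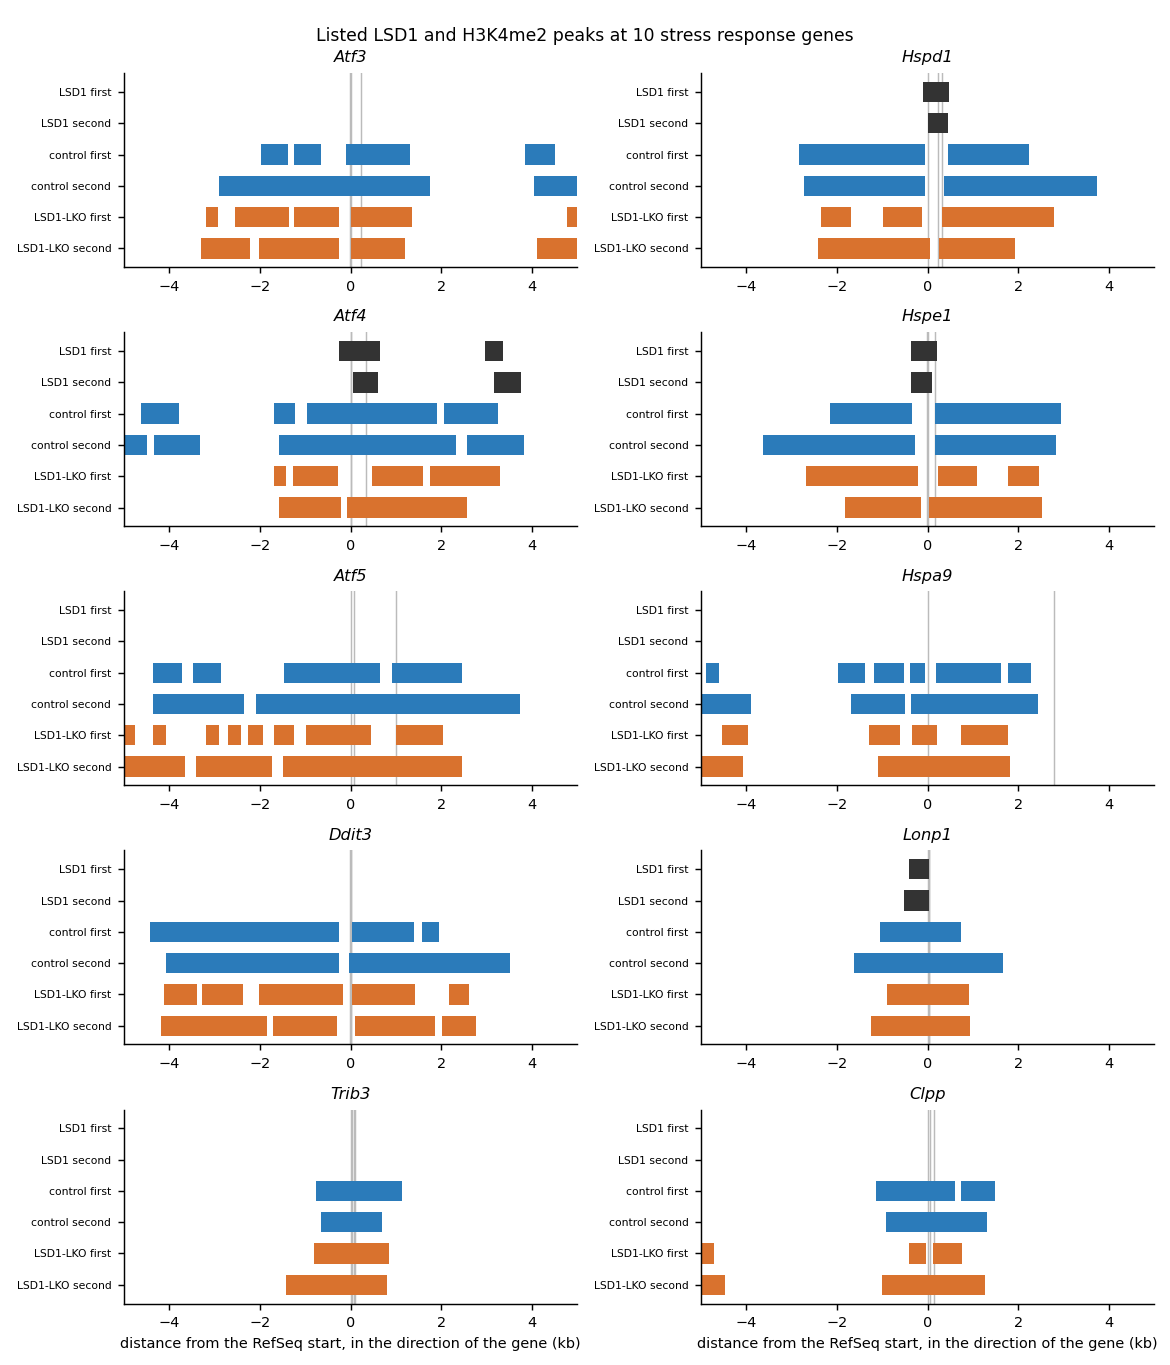
Listed peaks within 5 kb of the RefSeq start of each gene, 1 row per library (LSD1 black, control H3K4me2 blue, LSD1-LKO H3K4me2 orange, first- and second-listed library of each list), with distance in kb in the direction of the gene and gray lines at annotated starts. For *Hspa9*, the GENCODE 5′ start was used. The *Atf4* start lies under 1 control peak in each library and in or beside a gap of 750 or 140 bp in LSD1-LKO libraries. The first-listed LSD1 interval of *Hspd1* and *Hspe1* covers the gap between their H3K4me2 peaks except in the first-listed LSD1-LKO library (428 of 435 bp). The second-listed LSD1 interval covers the whole gap only in the second-listed LSD1-LKO library (195 bp).

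*Hspd1*, encoding the chaperonin HSP60 (chr1:55077835-55088243, minus strand), and *Hspe1*, encoding its cochaperonin HSP10 (chr1:55088132-55091307, plus strand), are transcribed in opposite directions from 1 region. The shared LSD1 peak, chr1:55087774-55088359, had folds of 3.10 and 3.84 and stood at the 66.9th percentile. H3K4me2 peaks lay on either side of its middle in all 4 libraries. They reached into the LSD1 peak from both sides except in the first-listed LSD1-LKO library. There, the H3K4me2 peak on the *Hspe1* side began at chr1:55088367, past the end of the LSD1 peak. The unmarked stretch between the flanking H3K4me2 peaks was 506 and 436 bp in the control libraries and 435 and 195 bp in the LSD1-LKO libraries, with no peak number skipped. The first-listed LSD1 interval of 586 bp is longer than each of these stretches and covered 506, 436, 428 and 195 bp of them. The second-listed LSD1 interval covered 439, 359, 305 and 195 bp of them. The heat shock element lay within this stretch in every library. *Hspd1* coverage was 1714 and 1784 bp in control and 1767 and 2025 bp in LSD1-LKO liver, so the groups overlapped. For *Hspe1*, coverage was 1677 and 1747 bp in control and 1659 and 1988 bp in LSD1-LKO liver, again overlapping. The RefSeq window of *Hspe1* was covered over 0 and 0 bases in control and 34 and 105 bases in LSD1-LKO libraries. The stretch of 435 bp in the first-listed LSD1-LKO library lay at chr1:55087932-55088366. That of 436 bp in the second-listed control library lay at chr1:55087878-55088313, so these differed in place and hardly in length. The *Hspd1* window with its start at chr1:55088243 was covered over 190 and 180 bases in control and 127 and 300 bases in LSD1-LKO libraries.

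*Lonp1*, encoding the matrix protease LONP1 (chr17:56614297-56626887, minus strand), had the best-ranked LSD1 peak of the 10 genes. It lay at chr17:56626887-56627307 over the start, with folds of 3.61 and 4.12, at the 79.9th percentile. The peak was wholly under H3K4me2 in both control and LSD1-LKO liver, unlike the LSD1 peak of the *Hspd1* and *Hspe1* pair, 13.7% of which lay under control H3K4me2. Coverage of the *Lonp1* promoter was 1714 and 2013 bp in control and 1812 and 1921 bp in LSD1-LKO liver, with the LSD1-LKO values between the control values. Its RefSeq window was whole under peaks in all 4 libraries. A second LSD1 peak in the window (chr17:56613377-56613957, folds of 2.75 and 1.99) lay at the start of *Rpl36*, a ribosomal protein gene.

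*Clpp*, the proteolytic subunit of the matrix protease ClpXP (chr17:56990305-56996188, plus strand), had no LSD1 promoter peak. An LSD1 peak 6.68 kb from its nearest start (chr17:56997076-56997742, folds of 2.67 and 2.17) lay at the start of *Alkbh7*. No control H3K4me2 peak overlapped it, whereas an LSD1-LKO peak with folds of 4.01 and 4.80 covered 64.9% of it. Another LSD1-LKO peak without a control counterpart lay upstream of *Clpp* (chr17:56984791-56985556, folds of 3.69 and 3.58). The control list skips 3 and 1 peak numbers between the listed peaks around the *Clpp* promoter, over 74.4 and 73.8 kb, so peaks of a single control library may lie there. At the *Clpp* promoter itself, coverage was 1959 and 2053 bp in control libraries and 1012 and 2088 bp in LSD1-LKO libraries. The LSD1-LKO libraries lay below and above both control libraries, so the lower mean of that group rests on 1 library.

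*Hspa9* encodes mortalin, the matrix Hsp70 (chr18:34937414-34954357, minus strand), and has 5 annotated starts, 4 of them inside the gene. The LSD1 peak nearest to any of its starts was 18.1 kb away. Coverage over its 9556 bp of promoter was 2440 and 2917 bp in control and 1212 and 2036 bp in LSD1-LKO liver. The groups did not overlap, and the difference of means, -1054.5 bp, stood at the 2.65th percentile among marked genes (exact permutation p = 0.333). The rank of its best H3K4me2 promoter peak, by −log10 p-value within each library, went the other way. It was the 63.9th and 85.8th percentile in control and the 89.0th and 95.6th in LSD1-LKO libraries. The 4 inner starts of *Hspa9* were under no H3K4me2 peak in any library, and the 5′ start was covered in 3 of the 4. The library without a peak over the 5′ start was the first-listed control library. No RefSeq window was available for *Hspa9*, so a window of the same size was placed around its GENCODE 5′ start. It was covered over 198 and 300 bases in control and over 300 and 300 bases in LSD1-LKO libraries. The lower coverage in LSD1-LKO liver therefore lay outside this window. The LSD1-LKO lists skip 3 and 3 peak numbers around these promoters and the control lists 0 and 1, so H3K4me2 peaks found in a single LSD1-LKO library may lie there.

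*Atf3*, a transcription factor of the ATF/CREB family (chr1:191170296-191218039, minus strand), carried H3K4me2 around its 2 inner starts and none at the distal 5′ start in any of the 4 libraries. The inner starts lay under control peaks in both libraries. The first-listed control library had an unmarked stretch of 539 bp further upstream (chr1:191183445-191183983), which held no start, and the second-listed control library had none. In both LSD1-LKO libraries an unmarked stretch of 271 and 270 bp, with no peak number skipped, took in the start at chr1:191183340 and not the one at chr1:191183108. The RefSeq window there was covered over 161 and 300 bases in control and over 40 and 43 bases in LSD1-LKO libraries. Coverage of all *Atf3* promoters was 1694 and 2233 bp in control and 1962 and 1938 bp in LSD1-LKO liver, with the groups overlapping. The peak over the inner starts had folds of 3.70 and 6.91 in control, and the corresponding LSD1-LKO peak had folds of 7.02 and 5.82. The LSD1 peak nearest to any start of *Atf3* was 36.4 kb away.

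*Ddit3*, encoding the transcription factor CHOP (chr10:127290774-127296288, plus strand), had an unmarked stretch at or just before its start in all 4 libraries. It measured 281 and 223 bp in control and 193 and 405 bp in LSD1-LKO liver. The stretch took in all 3 annotated starts except in the second-listed control library. There it ended at chr10:127290764, before the starts, which lay under a peak. Coverage was 1740 and 1798 bp in control and 1828 and 1616 bp in LSD1-LKO liver, and the groups overlapped. Its nearest LSD1 peak was 51.2 kb away. *Atf5*, encoding ATF5 (chr7:44812256-44816658, minus strand), had coverage of 2744 and 3001 bp in control and 2451 and 3001 bp in LSD1-LKO liver, with the second-listed library at the whole promoter in both groups. All 3 of its annotated starts were under peaks in every library, and the nearest LSD1 peak was 52.2 kb away. *Trib3*, a pseudokinase that binds ATF4 and AKT (chr2:152337422-152344032, minus strand), had coverage of 1860 and 1360 bp in control and 1657 and 1780 bp in LSD1-LKO liver, again overlapping. The LSD1 peak in its window (chr2:152332361-152332864, folds of 3.03 and 2.42) lay at the start of *Rbck1* and under H3K4me2 of both groups.

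For the 6 genes without an LSD1 promoter peak, absence from the list does not show that LSD1 was absent. Between the listed LSD1 peaks flanking their promoters, the LSD1 list skipped between 2 peak numbers in the first-listed library (*Trib3*, over 27.1 kb) and 27 in the second-listed library (*Clpp*, over 279 kb). A skipped number is a peak called in 1 library that had no sufficient partner in the other.

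**Figure D2:**
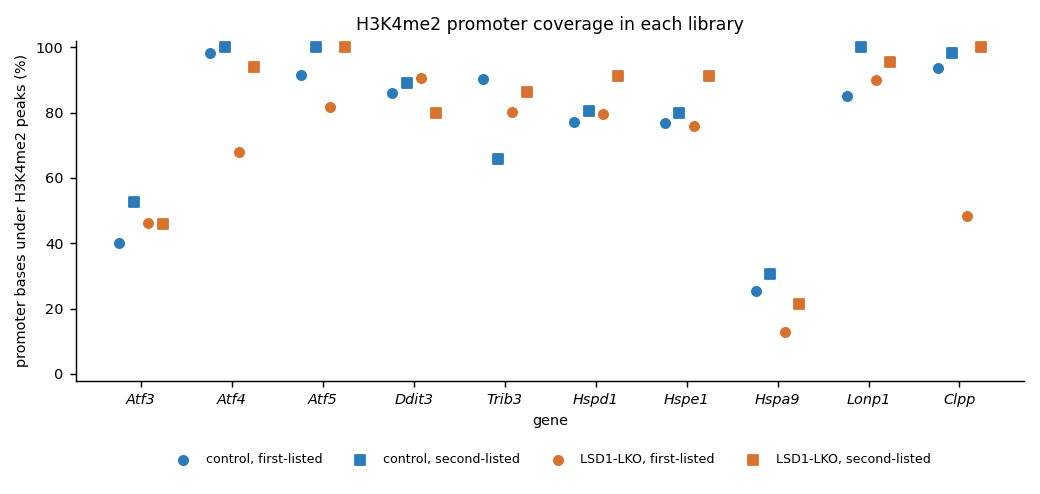
Percent of promoter bases (1 kb on either side of every annotated start) under H3K4me2 peaks in each of 4 libraries, blue for control and orange for LSD1-LKO, circles for first-listed and squares for second-listed libraries. Both LSD1-LKO points lie below both control points for *Atf4* (67.9% and 94.0% against 98.3% and 100%) and *Hspa9* (12.7% and 21.3% against 25.5% and 30.5%), and the groups overlap for the other 8 genes.

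Over the 10 genes, the change in coverage from control to LSD1-LKO liver had a median of -30.2 bp and ran from -1054.5 bp at *Hspa9* to 147.0 bp at *Hspd1*. The median over the 13777 marked genes was -32.0 bp. Coverage was lower in LSD1-LKO liver at 6 of the genes and higher at 4, and over marked genes it was lower at 7430 and higher at 6310. The first- and second-listed libraries differed more from each other than the groups did. Median coverage over the 10 genes was 1800 and 2030 bp in control and 1710 and 2010 bp in LSD1-LKO libraries, and over all marked genes 1500 and 1760 bp against 1360 and 1810 bp. Listed peaks had median widths of 648 bp in the first-listed and 1161 bp in the second-listed control library, and of 565 and 1240 bp in the LSD1-LKO libraries. The lists also required a minimum overlap of the first-listed peak only. Whether the difference between libraries reflects depth, this rule or something else was not tested, as the lists hold no reads.

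Of the 11 RefSeq windows of 9 members in the table of promoters, coverage was lower in both LSD1-LKO libraries at those of *Atf3* and *Atf4* (9.58% of 12097 covered windows). It was higher at 1 of 2 windows of *Hspd1* and at that of *Hspe1*, which overlap (7.39%). These measures were added after the peaks had been seen. Across the whole windows there were 44 distinct control H3K4me2 peaks, of which 11 met no LSD1-LKO peak (31.9% of all control peaks), and 46 LSD1-LKO peaks, of which 11 met no control peak (35.9% of all LSD1-LKO peaks).

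**Figure D3:**
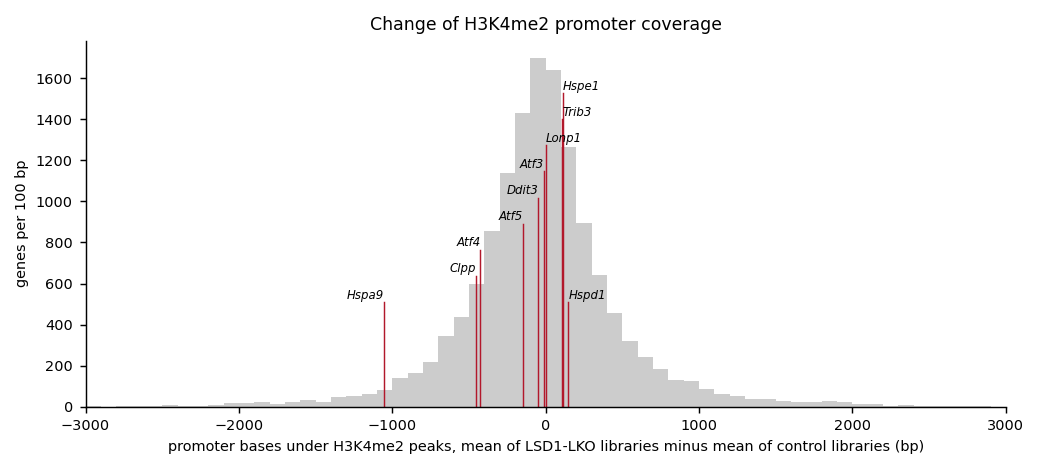
Distribution of the change in H3K4me2 promoter coverage, mean of LSD1-LKO libraries minus mean of control libraries in bp, over marked protein-coding genes (gray, genes per 100 bp, drawn between -3000 and 3000 bp), with red lines at the 10 genes, whose heights serve only to separate the names. *Hspa9*, *Clpp* and *Atf4* lie at -1054.5, -456.0 and -425.5 bp, and the other 7 between -146.5 and 147.0 bp.

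The 10 windows held 8 distinct LSD1 peaks. Folds ran from 2.07 to 3.71 in the first-listed library and from 1.99 to 4.12 in the second-listed library, and the median rank was the 37.5th percentile. None reached a q-value of 0.05, or a p-value of 1e-05, in both libraries. Of the 8, 7 overlapped a control H3K4me2 peak, against 52.5% of all LSD1 peaks. The start of a member was the nearest start to 4 of them, and at least 1 LSD1 peak lay in the windows of 6 of the 10 genes, against 43.7% of all protein-coding genes.

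**Figure D4:**
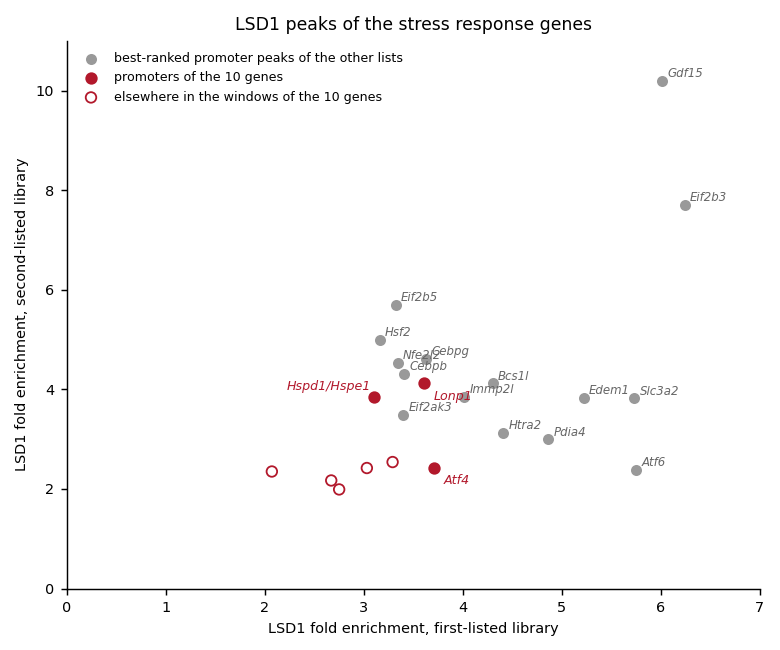
LSD1 fold enrichment in the first-listed (horizontal) and second-listed (vertical) library, for promoter peaks of the 10 genes (filled red), other LSD1 peaks in their windows (open red) and, in gray, the best-ranked LSD1 promoter peaks of 5 lists of related genes, up to 3 a list. The 10 genes stay at or below 3.71 and 4.12, and *Gdf15*, at 6.01 and 10.2, and *Eif2b3*, at 6.24 and 7.71, lie farthest out among the gray points.

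The 70 genes of 5 other lists around these pathways were described in the same way. Upstream of ATF4, all 12 genes of the eIF2α kinases, phosphatases and exchange factor had H3K4me2 promoter peaks in both groups, and 6 had an LSD1 promoter peak. These included *Eif2b3* and *Eif2b5*, subunits of the exchange factor eIF2B, with folds of 6.24 and 7.71 and of 3.32 and 5.70, and *Eif2ak3*, encoding the kinase PERK, with folds of 3.40 and 3.49. Coverage was lower without overlap at 2 (*Eif2ak1*, the heme-regulated kinase, and *Eif2ak2*, the kinase PKR) and higher at 1 (*Eif2b1*), with a median change of -104 bp. For these lists, the shares over all marked genes are those given above, 17.3% lower and 15.1% higher without overlap. They include genes marked in the control or the LSD1-LKO list only.

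Among 21 ATF4 targets, 8 had an LSD1 promoter peak, 17 an H3K4me2 promoter peak in control and 19 in LSD1-LKO liver. *Gdf15*, a secreted stress cytokine, had an LSD1 peak at the 99.7th percentile (chr8:70630219-70631946, folds of 6.01 and 10.2). It was followed by *Slc3a2*, the heavy chain of amino acid transporters, at the 92.7th and *Cebpb*, a bZIP partner of ATF4, at the 89.7th percentile. Coverage was higher without overlap at 4, *Asns*, *Aars*, *Cebpb* and *Nupr1*, and lower at *Slc3a2*, with a median change of 46.0 bp (17.3% and 15.1% of marked genes were lower and higher). *Cebpb* and *Nupr1* were marked in the LSD1-LKO list only. Their calls among the 4 follow from that listing, since both scored 0 bp in both control libraries through absence from the control list. The *Cebpb* promoter was covered over 0 of 2001 bp in control libraries and over all of it in both LSD1-LKO libraries. Within the 3.52 and 2.85 kb between the flanking control peaks, however, the control list skips 1 and 2 peak numbers, so peaks called there in control libraries were left out of the list. *Nupr1*, a stress-induced chromatin protein, was covered over 277 and 1474 bp in LSD1-LKO liver, and 3 numbers were skipped in each control library around it.

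In the unfolded protein response of the endoplasmic reticulum, 6 of 12 genes had an LSD1 promoter peak, led by *Edem1* (88.8th percentile), *Atf6* (86.6th) and *Pdia4* (81.0th), and all 12 were marked in both groups. *Pdia4*, a protein disulfide isomerase, was covered over 1372 and 1880 bp in control and 875 and 991 bp in LSD1-LKO liver, and it and *Creld2* were the 2 lower without overlap, with *Sel1l* the 1 higher (17.3% and 15.1% of marked genes). The median change was 0.5 bp. Among 15 other mitochondrial chaperones, proteases and quality control genes, 5 had an LSD1 promoter peak, led by *Bcs1l*, an assembly factor of complex III (93.0th percentile), *Htra2* (80.2nd) and *Immp2l* (77.6th). Coverage was lower without overlap at 4, *Yme1l1*, *Grpel1*, *Phb* and *Bcs1l* (17.3% of marked genes), with a median change of -72.5 bp. *Bcs1l*, which carries LSD1, was covered over 1705 and 1501 bp in control and 476 and 662 bp in LSD1-LKO liver. *Grpel1*, the nucleotide exchange factor of mortalin, was covered over 1498 and 1758 bp in control and 295 and 845 bp in LSD1-LKO liver. *Hscb*, a cochaperone of iron-sulfur cluster assembly, was the 1 higher and was marked in LSD1-LKO liver only, with 1 and 2 numbers skipped in the control libraries. Its call as higher follows from its absence from the control list. Of 10 heat shock and partner transcription factors, 7 had an LSD1 promoter peak, with *Cebpg*, *Hsf2* and *Nfe2l2* (NRF2) at the 90.0th, 83.0th and 81.7th percentiles. Of the 10, 9 were marked in both groups. *Batf* was marked in neither list and counts as overlapping at 0 bp in every library. Coverage overlapped between groups at all 10, with a median change of -192 bp.

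**Figure D5:**
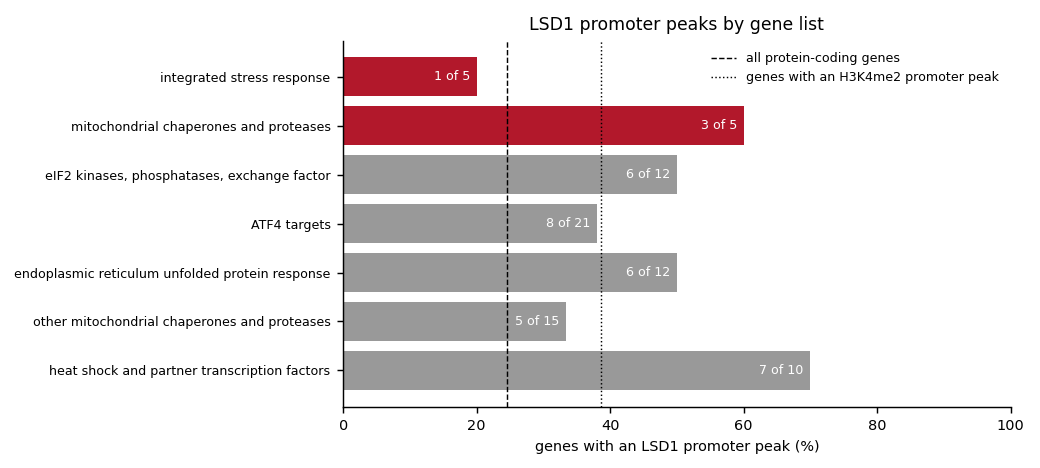
Percent of genes with an LSD1 promoter peak in each list, with counts in the bars, red for the 2 groups that make up the 10 genes and gray for the 5 other lists. The dashed line marks 24.6% of all protein-coding genes and the dotted line 38.6% of genes with an H3K4me2 promoter peak, and the bars run from 1 of 5 (integrated stress response) to 7 of 10 (heat shock and partner factors).

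Promoters of hepatocyte markers carried H3K4me2 at 5 of 6 in control and 6 of 6 in LSD1-LKO liver, those of Kupffer cell, lymphocyte and neuron markers at 0, those of endothelial cells and cholangiocytes at 2 of 3 in each, and those of stellate cells at 1 and 2 of 3. At the deleted gene, *Kdm1a*, coverage was 0 bp in both control libraries and 910 and 1805 bp in LSD1-LKO libraries, but the control list skips 2 and 6 peak numbers around it, and H3K4me2 does not measure the deletion.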

How the data were processed

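LSD1 ChIP in wild-type liver and H3K4me2 ChIP in control and LSD1-LKO liver gave 2 libraries each, 12 samples with control libraries (input in the labels, IgG in the methods). The authors mapped reads to mm10 with Bowtie 2, called peaks per library with MACS and kept first-listed peaks overlapped by a second-listed peak with BEDtools 2.25.0. At least 50% of each first-listed peak was overlapped, with no such limit on the other. The methods name a threshold of 0.01, but weaker peaks, to about 0.05, are listed. Each deposited entry holds the authors' fold enrichment (a ratio of ChIP to local control signal), −log10 p-value, −log10 q-value and peak name in both libraries. The 12 columns of scores and summit offsets were not used.

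Promoters and overlaps (at least 1 bp) were computed in Python 3.11.15 with numpy 2.4.6 and pandas 2.3.3, and figures with matplotlib 3.10.9. Chromosome names were those of GRCm38.p6, and no listed peak ended past the end of its chromosome. The GENCODE release was vM21, and *Ddit3* was the record ENSMUSG00000025408. Interval code was tested on simulated data. Coverage counted promoter bases under listed peaks per library. Ranks are percentiles of LSD1 peaks within their list, except those of H3K4me2 peaks at *Hspa9*, which are within each library. Overlaps between lists use first-listed intervals unless stated. An exact permutation test over 2 against 2 libraries was the only test over samples. Each list kept only peaks that overlap between its 2 libraries, so the 2 coverage values of a group are not independent. That limits the test and the counts of non-overlap.

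The genes, lists and tests were chosen with earlier results of these data known. All 10 genes are named. Of each other list, up to 3 genes with an LSD1 promoter peak (by mean −log10 p-value) and up to 3 with an H3K4me2 promoter peak in 1 list only were named, and those with non-overlapping coverage were named after their values were seen. Peak numbers, RefSeq windows and motifs were added after the peaks were seen.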

Additional observations from a re-analysis of the deposited data

How the results depend on the processing

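Of 49 alternative values for 6 results, 43 lay within a factor of 1.5 of the main count or, for the median coverage change, within 187 bp, the SD between libraries. Keeping peaks at a p-value of 1e-05 or below in both libraries left 0 LSD1 peaks in the windows and 0 genes with an LSD1 promoter peak, and so did a q-value of 0.05 or below (0 and 0). The median coverage change was -361 bp with promoters of 2 kb on either side, against -30.2 bp, and changed sign to 57.2 bp at p-values of 1e-05 or below, so its direction depends on the threshold. Without 1 of the 2 libraries of each list it ran from -110 to -46 bp. The number of genes with non-overlapping coverage, 2 in the report, was 1 at q-values of 0.05 or below and 3 at p-values of 1e-05 or below and with 500 bp promoters, and the genes differed. *Atf4* was lower under 5 of 6 alternatives and not with 2 kb promoters, *Hspa9* under 2, *Clpp* at p-values of 1e-05 or below and *Ddit3* with 2 kb promoters. *Trib3* was higher at p-values of 1e-05 or below, *Hspe1* with 1 start per gene, and *Hspd1* and *Hspe1* with 500 bp promoters. The causes were not tested. No paired analysis was possible because the lists carry no replicate numbers. A gene absent from a list may have a peak in 1 library, and 2 libraries a group cannot reach p below 0.333 in an exact test.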
